A study of Mus musculus with 4 samples.

Results

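Motif accessibility was examined for the steroid hormone receptors Nr3c1, Nr3c2, Pgr, Esr1 and Esr2 in regulatory T cells (Tregs) of the mouse spleen. The receptors were chosen with earlier results of these data known. Their entries were then matched by factor symbol alone in a table of chromVAR deviation scores, which gave 13 motif entries of 1346. Pgr had 9 entries and each other receptor had 1. The entries held 12 distinct sets of scores, because the Nr3c2 entry and Pgr entry 6800 had identical values. Numbers such as 6800 are those in the entry names and serve here to tell entries of 1 symbol apart.

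Chromatin accessibility had been measured by ATAC-seq, in which a transposase cuts open DNA, in CD4+ FOXP3+ cells. All mice carried the FOXP3-IRES-GFP allele, which reports Foxp3 through GFP (strain B6.Cg-Foxp3tm2Tch/J, genotype given as WT). For 14 days they were given vehicle or 50 mg/kg venetoclax, a drug that blocks the survival protein BCL-2, and each group had 2 samples. The age and sex of the mice are not given in the labels used here. The samples are labelled as biological replicates with no animal named for each, so a p-value here speaks only of the spread among the 4 samples, which may be technical. The scores hold no gene levels, so the labelled cell type could not be checked against marker genes.

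Steroid hormone receptors are transcription factors that bind DNA as dimers once a steroid has entered the cell. Nr3c1 is the glucocorticoid receptor, Nr3c2 the mineralocorticoid receptor and Pgr the progesterone receptor. Their natural ligands carry a 3-keto group, and these receptors recognise closely related DNA elements. Esr1 and Esr2 are the estrogen receptors α and β, which bind a different element. Glucocorticoids act widely on T cells, where Nr3c1 restrains inflammatory genes and can drive death of thymocytes, a process in which BCL-2 family proteins take part.

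The textbook half-sites of the 2 classes are AGAACA for the 3-keto steroid receptors and AGGTCA for the estrogen receptors. Counted from the 5′ end of the half-site, they differ by A3G and A4T, with the 3-keto base first. A full element holds 2 half-sites as an inverted repeat around 3 bases, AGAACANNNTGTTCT or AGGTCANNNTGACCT, and each reads the same on both strands. The table gives no motif letters, so the elements are shown here in RefSeq promoter windows of GRCm38.p6, the assembly behind mm10, from 250 bases before to 50 after a gene start. They show what the 2 motif classes look like, and no peak or score belongs to them. Capitals mark the half-sites.
Sgk1 (chr10:21993694-21993722, + strand): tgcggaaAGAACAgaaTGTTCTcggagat
Acnat2 (chr4:49408232-49408260, - strand): acaaagcAGAACAcaaTGTTCTcttccaa
Lmntd1 (chr6:145434947-145434975, - strand): acaaatgAGGTCAtaaTGACCTcatgaga
Tex45 (chr8:3470788-3470816, + strand): actcttgAGGTCAcaaTGACCTgggccag
Sgk1 encodes a kinase named for its induction by serum and glucocorticoids, and its match lies 175 to 189 bases before the start. Exact full elements were rare. The 3-keto form was found in 3 of 32851 windows (0.00913%) and the estrogen form in 7 (0.0213%), of which 4 were windows of 1 gene. Single half-sites on either strand were common, in 19.0% of windows for AGAACA and 16.3% for AGGTCA.

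A chromVAR score compares the accessibility of all peaks with a motif in a sample with that expected from the average of the samples scored together, after a correction for bias by background peaks. A score above 0 means more than this expectation and a score below 0 less, so a low score does not mean that the peaks are closed. The score has no unit and refers to a DNA motif rather than to the amount of a receptor. Over all 1346 entries the SD of a sample's scores was between 0.89 and 0.97. Venetoclax replicate 2 stood apart over the whole table. Its Pearson correlation across entries was -0.18 with vehicle replicate 1, -0.74 with vehicle replicate 2 and 0.09 with venetoclax replicate 1, while the other 3 samples correlated with each other at 0.38 to 0.60.

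None of the 13 receptor entries passed an adjusted p of 0.05 in limma for venetoclax against vehicle, and none of all 1346 entries did (0%). At an unadjusted p under 0.05 there was 1 receptor entry, Pgr entry 6812, which was higher with venetoclax, where 6.39% of all entries were higher at that level and 11.9% lower. Of the 11 entries of the 3-keto receptors 8 had differences above 0 (7 of the 10 distinct score sets), with a median of 0.33 and a range from -0.69 to 1.55. Without venetoclax replicate 2 this turned, with 4 of 11 positive and a median of -0.34, where 44.4% of all entries were positive. Without venetoclax replicate 1 the median was 1.11 with 9 of 11 positive, where 38.3% of all entries were. Without vehicle replicate 2 it was 0.03 with 7 of 11 positive (38.3% of all entries), and without vehicle replicate 1 0.60 with 7 of 11 (39.1%). Both estrogen receptor entries had differences below 0, at -1.08 for Esr1 and -0.41 for Esr2. With all 4 samples the median difference over all entries was -0.29, and 38.7% were positive and 61.3% negative. With the sample medians subtracted, 49.6% of all entries were positive, and 10 of the 11 3-keto entries were.

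Fits that called other motifs called no receptor motif. Without venetoclax replicate 1, where the spread of the lone venetoclax sample is taken to be that of the vehicle pair, limma called 25% of all entries, and with a trended and robust variance it called 5.5%, and in both fits 0 of the 13 receptor entries passed. With all 4 samples 18.3% of all entries had an unadjusted p under 0.05 in either direction, and the groups did not overlap for 48.3% of them, against 4 of the 13 receptor entries.

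**Figure D1:**
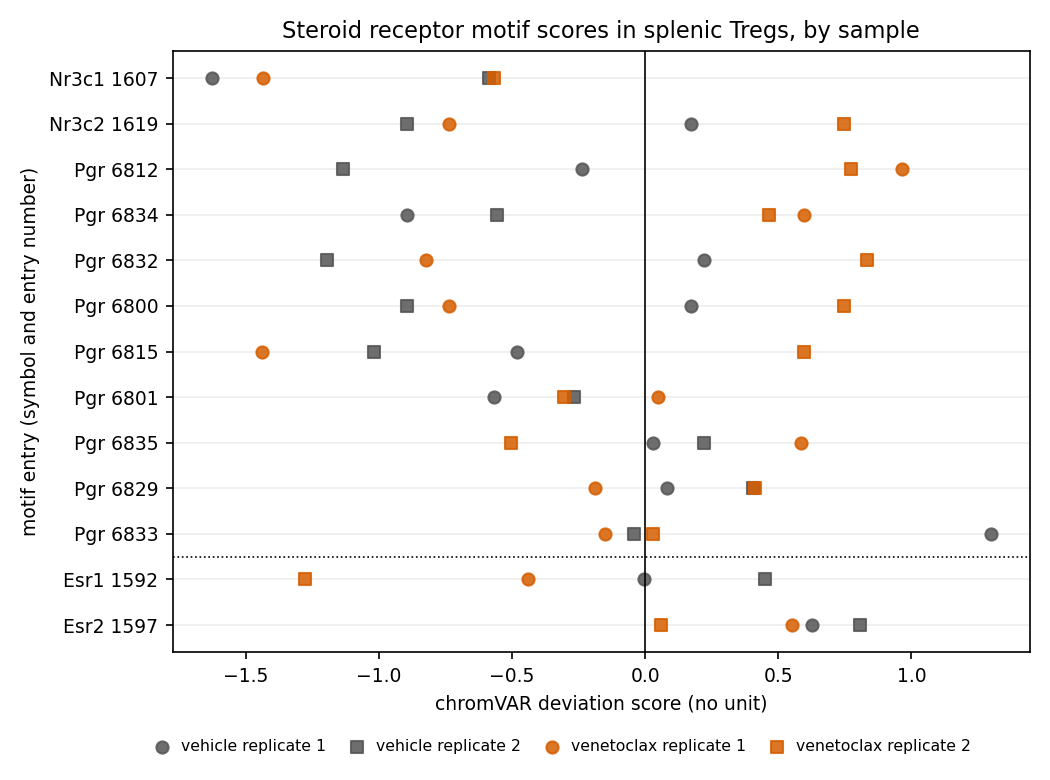
Deviation scores (horizontal axis, no unit) of the 13 receptor motif entries (vertical axis) in each of the 4 samples. Grey marks vehicle, orange venetoclax, circles replicate 1 and squares replicate 2, and the dotted line parts 3-keto receptors from estrogen receptors. The groups are apart for Pgr entries 6812 and 6834 and for Esr1 and Esr2, and overlap for the other 9 entries.

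The glucocorticoid receptor motif (Nr3c1, ENSMUSG00000024431) had scores below 0 in every sample. It scored -1.63 and -0.58 in the vehicle samples and -1.44 and -0.57 in the venetoclax samples. The 2 replicates of either group lay further apart than the groups did, by 1.04 with vehicle and 0.87 with venetoclax. The difference of venetoclax from vehicle was 0.10 (SE 0.71), with a 95% interval from -1.38 to 1.59 and a limma adjusted p of 0.943. It was -0.42 without vehicle replicate 1 and -0.33 without venetoclax replicate 2, so its sign rested on single samples. Of all 1346 entries, 93.8% had a larger absolute difference.

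The mean of the Nr3c1 entry over the 4 samples was -1.05, and 2.53% of all entries had a lower mean. It was the only receptor entry below 0 in all 4 samples, a property of 8.92% of all entries. The Esr2 entry was the only one above 0 in all 4 samples, as were 5.72% of all entries, and its mean was 0.51. The means of the other receptor entries lay between these, from -0.58 for Pgr entry 6815 to 0.28 for Pgr entry 6833. In the order of these means the entries next to each other did not differ beyond the spread between replicates.

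The mineralocorticoid receptor motif (Nr3c2, ENSMUSG00000031618) differed within both groups. Its scores were 0.17 and -0.89 with vehicle and -0.74 and 0.75 with venetoclax, and the groups overlapped. The difference was 0.37 (SE 0.74), with a 95% interval from -1.17 to 1.90 and a limma adjusted p of 0.823. It was -0.17 without vehicle replicate 2 and -0.38 without venetoclax replicate 2. Pgr entry 6800 carries these same scores and adds no further evidence.

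The progesterone receptor (Pgr, ENSMUSG00000031870) is the one receptor with several entries, and they did not behave as 1 motif. Entry 6812 scored -0.24 and -1.13 in the vehicle samples and 0.96 and 0.77 in the venetoclax samples. Both venetoclax samples were above 0 and both vehicle samples below. The difference was 1.55 (SE 0.70), with a 95% interval from 0.11 to 3.0, an unadjusted limma p of 0.0366 and an adjusted p of 0.261. It ranged from 1.11 without vehicle replicate 2 to 2.00 without vehicle replicate 1, and 16.7% of all entries had a larger absolute difference.

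Entry 6834 of Pgr showed the same arrangement with less spread. It scored -0.89 and -0.55 in the vehicle samples and 0.60 and 0.47 in the venetoclax samples. The difference was 1.25 (SE 0.68), with a 95% interval from -0.17 to 2.68 and a limma adjusted p of 0.355. Its own SDs were 0.24 with vehicle and 0.09 with venetoclax, so this SE mostly reflects the spread shared over entries. Leaving out 1 sample at a time gave values from 1.09 to 1.42. These 2 were the receptor entries whose venetoclax samples were both above both vehicle samples, which is 2 of 13 where 17.2% of all entries were so arranged.

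The other Pgr entries had overlapping groups. Entry 6832 scored 0.22 and -1.19 in the vehicle samples and -0.82 and 0.83 in the venetoclax samples, a pattern close to that of Nr3c2. Entry 6815 scored -0.48 and -1.02 in the vehicle samples and -1.44 and 0.60 in the venetoclax samples. In both, and in the entry shared with Nr3c2, venetoclax replicate 2 was the highest of the 4 samples and venetoclax replicate 1 was far below it. Their differences were 0.49 for entry 6832 and 0.33 for entry 6815, and without venetoclax replicate 2 they were -0.34 and -0.69.

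The remaining 4 Pgr entries stayed nearer to 0 in most samples. Entry 6801 scored -0.57 and -0.27 in the vehicle samples and 0.05 and -0.30 in the venetoclax samples, a difference of 0.29, and these scores are not particular to Pgr, since 1 entry of another symbol holds the same 4. Without venetoclax replicate 2 the difference was 0.47. Entry 6835 scored 0.03 and 0.22 in the vehicle samples and 0.58 and -0.50 in the venetoclax samples, a difference of -0.09. Entry 6829 scored 0.08 and 0.41 in the vehicle samples and -0.19 and 0.41 in the venetoclax samples, a difference of -0.13. The last 2 differences were small against their SEs of 0.70 and 0.69 and were positive after centring, at 0.18 for entry 6835 and 0.13 for entry 6829. Entry 6833 scored 1.30 and -0.04 in the vehicle samples and -0.15 and 0.03 in the venetoclax samples, so that its difference of -0.69 rested on vehicle replicate 1 and was -0.02 without it.

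Among the 9 Pgr entries the median distance between 2 sets of 4 scores (Euclidean, in score units) was 1.77, where the median over all 976 distinct sets was 2.20. The pairs ranged from 0.33 for entries 6832 and 6800 to 2.66 for entries 6815 and 6835. A difference given for Pgr therefore depends on the entry chosen, from -0.69 to 1.55.

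The motif of estrogen receptor α (Esr1, ENSMUSG00000019768) had the most negative difference of the 13. It scored -0.003 and 0.45 in the vehicle samples and -0.44 and -1.28 in the venetoclax samples, so both venetoclax samples were below both vehicle samples. The difference was -1.08 (SE 0.70), with a 95% interval from -2.53 to 0.37 and a limma adjusted p of 0.44. Leaving out 1 sample at a time gave values from -1.50 to -0.66, and centring gave -0.82. Of all entries, 32.2% had a larger absolute difference.

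The motif of estrogen receptor β (Esr2, ENSMUSG00000021055) scored 0.63 and 0.81 in the vehicle samples and 0.55 and 0.06 in the venetoclax samples. All 4 samples were above 0, and the lower vehicle sample exceeded the higher venetoclax sample by a small margin. The difference was -0.41 (SE 0.69), with a 95% interval from -1.84 to 1.02 and a limma adjusted p of 0.794. After centring on the sample medians it was -0.15. It was -0.16 without venetoclax replicate 2 and -0.66 without venetoclax replicate 1. The 2 estrogen receptor entries were the 2 of 13 with venetoclax below vehicle in both samples, an arrangement found in 31.1% of all entries.

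**Figure D2:**
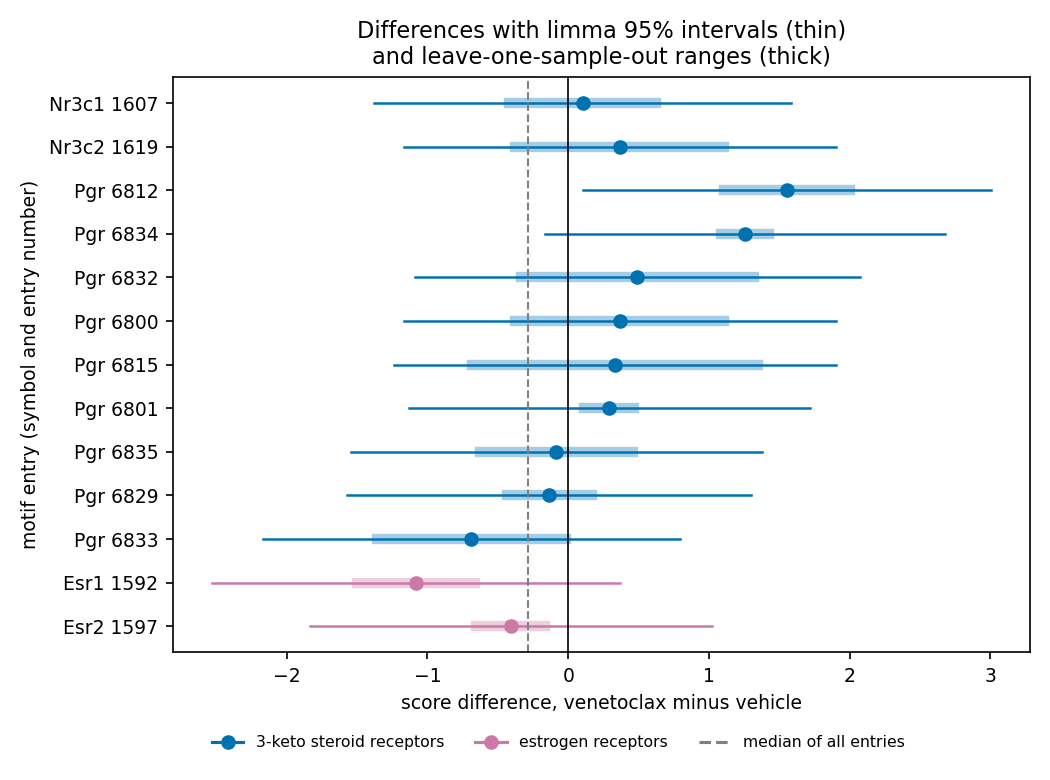
Score difference of venetoclax from vehicle (horizontal axis, score units) for each receptor entry (vertical axis), as points with limma 95% intervals (thin lines) and the range over fits that leave out 1 sample (thick lines). The interval holds 0 for 12 of the 13 entries, and the dashed line is the median of all entries at -0.29.

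The 2 receptor classes were then set side by side, with each distinct set of scores counted once in its class. The 3-keto class held 10 sets, of which 9 were Pgr sets, 1 of them shared with Nr3c2. Its mean is thus mostly that of Pgr entries, and the estrogen receptor mean rests on 2 sets. The 3-keto mean was -0.20 and -0.51 in the vehicle samples and -0.26 and 0.25 in the venetoclax samples. The estrogen receptor mean was 0.31 and 0.63 in the vehicle samples and 0.06 and -0.61 in the venetoclax samples. The 3-keto mean was thus below the estrogen receptor mean in 3 samples and above it in venetoclax replicate 2.

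Within a sample, the 3-keto mean minus the estrogen receptor mean was -0.51 and -1.13 with vehicle and -0.31 and 0.86 with venetoclax. This gap averaged -0.82 ± 0.44 in the vehicle group and 0.27 ± 0.83 in the venetoclax group (SD, n = 2 in each), 1.09 apart. Both venetoclax samples were above both vehicle samples, but venetoclax replicate 1 was only 0.20 above vehicle replicate 1, less than the SD within either group. Without venetoclax replicate 2 the groups were 0.51 apart, and without venetoclax replicate 1 they were 1.68 apart. The gap is taken within a sample, so a shift of all motifs in a sample leaves it as it is. It is a description, with no test, because the receptors were chosen with earlier results of these data known. The Nr3c1 entry minus the Esr1 entry, the only receptor entries marked D in their names (a directly determined motif, in CIS-BP usage), was -1.62 and -1.04 with vehicle and -0.996 and 0.71 with venetoclax.

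**Figure D3:**
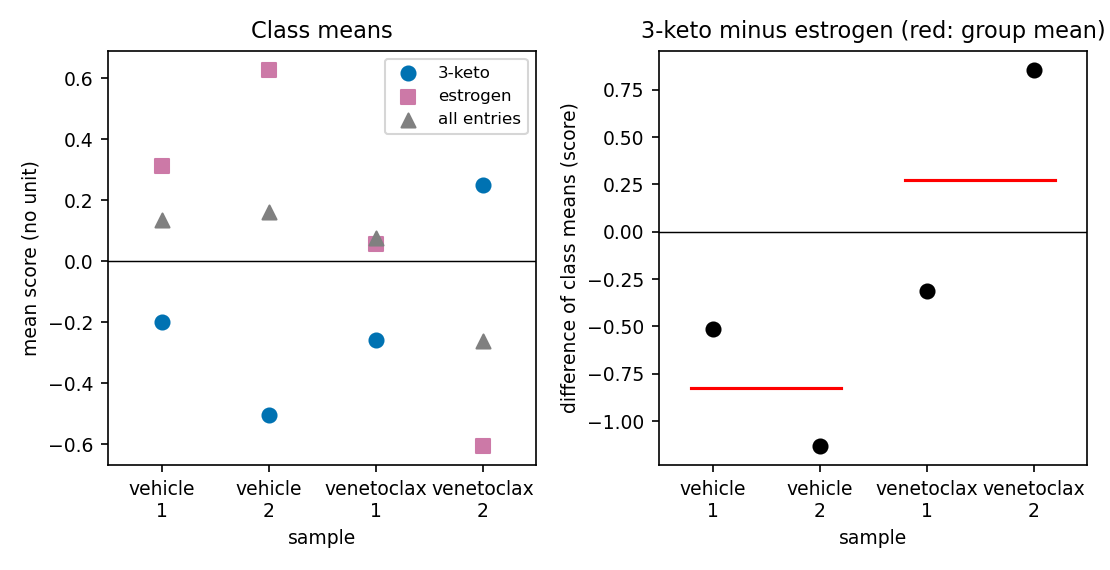
Left, mean score per sample (vertical axis, no unit) of the 3-keto receptor entries, the estrogen receptor entries and all entries. Right, the 3-keto mean minus the estrogen mean in each sample, with red lines at the group means of -0.82 and 0.27, where venetoclax replicate 2 at 0.86 is the one sample above 0.

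Precision set what could be seen. The 95% interval of a receptor entry reached 1.42 to 1.58 score units to either side of its difference, and the larger gap between replicates of a group exceeded the absolute difference in 10 of the 13 entries, where this held for 66.3% of all entries. Differences of the receptor motifs smaller than this could not be told from 0 with 2 samples a group. The intervals rest largely on the spread shared over all motif entries. They are not adjusted for the number of entries, and the adjusted threshold asks for more. None of all 1346 entries passed it, though their differences ran from -3.80 to 3.89. Between 16.7% (for Pgr entry 6812) and 95.1% (for Pgr entry 6835) of all entries had a larger absolute difference than a given receptor entry.

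**Figure D4:**
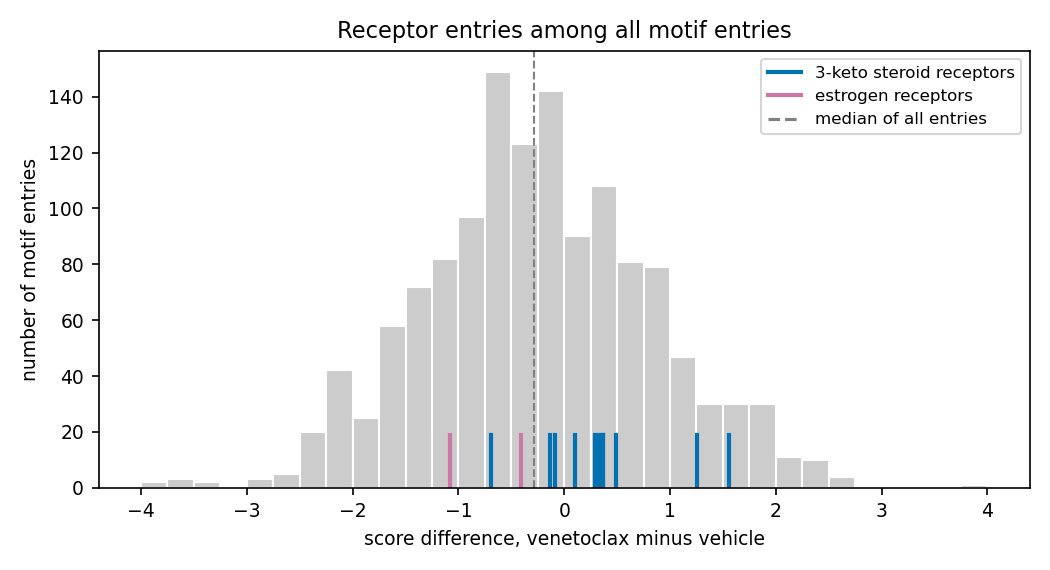
Number of motif entries (vertical axis) by score difference of venetoclax from vehicle (horizontal axis, score units) for all 1346 entries, with a tick for each receptor entry. The ticks run from -1.08 for Esr1 to 1.55 for Pgr entry 6812, while all entries run from -3.80 to 3.89.

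Motifs of factors known to work with these receptors or to bind related DNA were taken from lists drawn up by function. The first list holds orphan receptors that bind an extended AGGTCA half-site, the estrogen-related receptors Esrra, Esrrb and Esrrg and the Nr5a receptors Nr5a1 and Nr5a2. Of its 10 entries 8 had positive differences, with a median of 0.77, and 0 passed an adjusted p of 0.05. Esrrg, an entry of Nr5a1 and an entry of Nr5a2 share a set of scores of -0.05 and -0.81 with vehicle and 2.02 and 1.72 with venetoclax. The difference of this set was 2.30, and the other Nr5a2 entry differed by 0.30. The 3 entries of Nr5a1 ranged from -0.25 to 2.30 and the 3 of Esrra from -0.24 to 2.19. Esr1 and Esr2, which use the same half-site letters, had differences of the opposite sign to the shared set. In the list, 2 of the 10 entries were negative as well. A test between the lists was not made.

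Glucocorticoid receptor partners, which are AP-1, C/EBP, STAT and NF-kappaB factors that meet Nr3c1 at shared sites, had 15 entries. Of these 9 were positive and 6 negative, with a median of 0.30, and 0 passed. Fosb, an AP-1 subunit, scored -1.94 and -1.90 in the vehicle samples and -0.44 and 1.79 in the venetoclax samples. Fos differed by 1.82 (SE 0.71) and Cebpb by 1.53 (SE 0.75), both with groups apart. Other members had negative differences with groups apart. Junb, also an AP-1 subunit, scored 0.37 and 0.97 in the vehicle samples and -0.80 and -1.01 in the venetoclax samples, and Stat5a, which acts downstream of IL-2, differed by -1.50 (SE 0.72). Without venetoclax replicate 2 the difference was 1.48 for Fosb and 1.16 for Fos, and without vehicle replicate 2 it was -0.74 for Stat5a. Factors whose genes are known to be induced by glucocorticoids had 9 entries, 4 positive and 5 negative, with a median of -0.27. Foxo1 scored 2.95 and 2.51 in the vehicle samples and 0.50 and -2.64 in the venetoclax samples, a difference of -3.80 that was -2.23 without venetoclax replicate 2. The 5 entries of Cebpd ranged from -1.56 to 1.84, and the last was 0.93 without venetoclax replicate 2. Klf9 differed by 1.77 and Foxo3 by -1.04, both with groups apart, and Klf15 by -0.27 with overlapping groups.

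Estrogen receptor partners had 8 entries, 4 positive and 4 negative, with a median of -0.47, and 0 passed. Foxa1, a pioneer factor that opens estrogen receptor sites in breast cells, scored 2.78 and 3.18 in the vehicle samples and 1.40 and -2.97 in the venetoclax samples. Its difference was -3.76, and -1.58 without venetoclax replicate 2. Gata3 differed by -1.77 (SE 0.88), with overlapping groups, and by -0.31 without venetoclax replicate 2. Sp1 differed by -1.52. The 4 entries of Tcfap2a ranged from -1.06 to 0.69, and Tcfap2c differed by 0.25. The thyroid, retinoid and vitamin D receptors also read AGGTCA, but in repeats of other arrangements. They had 34 entries, 24 positive and 10 negative, with a median of 0.50, and 0 passed. Thrb and Thra have 7 entries each, which ranged from -0.18 to 2.70, and the last, a set that both share, was 1.83 without venetoclax replicate 2. Rxra, the common partner of these receptors, has 4 entries, which ranged from -1.80 to 1.38. The entry at -1.80 had groups apart and was -1.10 without venetoclax replicate 2. Rarg and Rarb have 4 entries each, which ranged from -0.47 to 1.37 for Rarg and from -0.74 to 1.22 for Rarb.

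Without venetoclax replicate 1, the difference was 2.15 for the set shared by Nr5a1, Nr5a2 and Esrrg, and 3.56 for the set of Thrb and Thra. It was 3.71 for Fosb, 2.48 for Fos and 2.76 for the Cebpd entry at 1.84. Negative differences were -5.95 for Foxa1, -5.37 for Foxo1, -3.23 for Gata3 and -2.50 for the Rxra entry at -1.80. Those of Junb and Stat5a were -1.67 and -1.48. Other entries of the lists are not given for this fit. These entries were named for having large differences in the same samples, so this is no independent support for them.

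The motifs whose 4 scores were closest to those of a receptor came from many families. Nearest to Nr3c1 were an entry of Rarg, a retinoic acid receptor, at a distance of 0.31, and Smad2 at 0.36. Hes7 was nearest to Nr3c2 at 0.24, Irf9 to Esr1 at 0.33 and Zfp300 to Esr2 at 0.23. For the receptor sets the distance to the nearest set of a factor outside the group ranged from 0.18, between Pgr entry 6833 and Sox17, to 0.48, between Pgr entry 6812 and Mixl1. Over all distinct sets the median distance to the nearest set of another symbol was 0.30. Pgr entry 6832 was closer to the set of Nr3c2 and Pgr entry 6800, at 0.33, than to Hes7, its nearest outside the group at 0.37.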

How the data were processed

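The ATAC-seq libraries came from cells that were lysed and whose nuclei were tagmented, per the labels' protocols. The tools Bowtie2, Picard and MACS2 and the build mm10 come from the submitters' processing notes, which as used here state neither version nor role. The authors deposited 1 chromVAR deviation score per motif entry and sample, per the file's name. Not given in the sources used here are read shifting, peak set, motif collection, the version of chromVAR and whether the score is a z-score. Entry names end in D or I, in CIS-BP usage direct or inferred, and 2 of the 13 receptor entries carry D. Depth is unknown, as the scores hold no counts. Of 12 sample columns, 8 match no described sample and were not used.

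Scores were tested as deposited with limma 3.58.1 in R 4.3.3 (lmFit, eBayes), two-sided, Benjamini-Hochberg adjusted over 1346 entries, with 21.0 degrees of freedom. Sharing of the spread over entries by eBayes gives this many with 4 samples. The step was tested on simulated data with independent samples of equal spread. In the real scores venetoclax replicate 2 stood apart, so that test does not show how the step performs on them. Differences are venetoclax minus vehicle, and equalled the authors' deposited table within 1e-09. Scores equal to 9 decimals counted as identical. Named were all entries of the 5 receptors, the nearest other motifs by Euclidean distance over the 4 scores, and, for each list, the symbols with the largest absolute differences. Tcfap2a and Tcfap2c were matched by older symbols. A motif that the rule names is not reported here. The receptors and lists were chosen with earlier results of these data known, so no p is given for a score over them. Alternatives were quantile normalization, sample centring, scaling by the SD, a replicate block, leaving out 1 sample, an ordinary linear model, a robust and trended variance, 1 entry per score set, an adjusted p of 0.1 and other class means.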

Additional observations from a re-analysis of the deposited data

How the results depend on the processing

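No receptor entry passed the threshold with the settings of the report or under any alternative that was run, including each sample left out, the trended and robust variance and an adjusted p of 0.1. The gap between the 3-keto and estrogen receptor means, 1.09 higher with venetoclax, ranged from 0.51 to 1.68 with a sample left out and from 1.03 to 1.18 under the other settings. The replicate numbers share only a number in the labels, and the deviations of same-numbered samples had a correlation of -0.27. With the replicate block 0 receptor entries passed and 0 had an unadjusted p under 0.05, against 1 without it, and with the crossed pairing 0 passed and 1 had an unadjusted p under 0.05. The block left the gap at 1.09.

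Differences of opposite sign were found after centring for Pgr entries 6835 (0.18) and 6829 (0.13) and after quantile normalization for the same entries (0.18 and 0.11). Leaving out 1 sample gave differences from -0.42 to 0.62 for Nr3c1, from -0.38 to 1.11 for Nr3c2 and Pgr entry 6800, from -0.34 to 1.32 for entry 6832, from -0.69 to 1.35 for entry 6815, from -0.63 to 0.46 for entry 6835 and from -0.43 to 0.17 for entry 6829. The cause was not tested. The unknown depth and 2 samples a group limit every value.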
